A study of Mus musculus with 24 samples.

Results

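A set of 9 genes of the Polycomb repressive complexes, which are Cbx2, Cbx6, Cbx7, Cbx8, Bmi1, Ezh1, Ezh2, Eed and Suz12, was followed in FACS-sorted supporting cells from fetal mouse gonads. They were chosen by symbol, without reference to a threshold on any measured value, and all 9 were found among the 32040 gene symbols of the deposited tables and passed the filter on low counts. Bulk RNA-seq of polyadenylated RNA was available for 24 libraries in 8 groups of 3. The XX groups are pre-granulosa cells, the supporting cells of the future ovary, from mice with the Tg(Enh8-mCherry) transgene at 4 embryonic days, E11.5 being the first and E12.5, E13.5 and E15.5 the later ones. The XY groups are Sertoli cells, the supporting cells of the testis, from the SOX9-IRES-GFP line at the same stages. The fluorescent reporter, the line and the sex therefore change together and cannot be told apart in any XX against XY comparison. RNA came from about 40000 sorted cells per isolation. The labels do not say whether embryos were pooled or whether the replicates are separate litters, so p-values measure the spread between these libraries, which may be technical. XX E13.5 replicate 1 carries E12.5 in its stage field but E13.5 in its title, and it was kept with the E13.5 group.

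Polycomb proteins keep genes silent through 2 complexes that act on histones. PRC2 places methyl groups on histone tails: Ezh2 and Ezh1 are alternative catalytic subunits, Eed and Suz12 are core partners that the enzyme needs, and Ezh2 is typical of dividing cells while Ezh1 persists in resting ones. Canonical PRC1 binds that mark through a chromobox subunit (such as Cbx2, Cbx6, Cbx7 or Cbx8, of which 1 is used per complex). It carries a Pcgf subunit such as Bmi1 beside a ubiquitin ligase, Ring1 or Rnf2. In this tissue Cbx2 is the best known member, since XY mice that lack it develop ovaries or ambiguous gonads.

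Levels are given as CPM, the count scaled to library size, on TMM-scaled library sizes, and the 24 libraries held between 11275251 and 37256881 estimated counts each. The labels held up against defining markers: the Sertoli gene Sox9 ranged from 1125 to 2218 CPM in XY and from 50.4 to 226 CPM in XX libraries, although its own locus drove the XY sort. The pre-granulosa gene Foxl2 ranged from 2.62 to 45.8 CPM in XX and from 0 to 0.261 CPM in XY libraries. The XX E11.5 libraries stood apart from one another and from the rest. Their 7 erythroid markers summed to between 3229 and 25907 CPM, against 10.5 to 22.6 CPM in XY E11.5, their 7 immune markers to between 113 and 309 CPM, against 0.408 to 1.96 CPM, and their 6 interstitial markers to between 275 and 2104 CPM, against 584 to 1006 CPM. From E12.5 on these sums also lay higher in all XX than in all XY libraries of the same stage. At E13.5 the erythroid sums were 492 to 580 CPM in XX and 36.0 to 50.7 CPM in XY. The immune ones were 31.2 to 43.1 and 0.387 to 1.04 CPM, the interstitial ones 191 to 256 and 10.8 to 13.8 CPM. Their part in the XX minus XY differences at any stage was not tested. In these bulk libraries fewer cells of a type and less RNA per cell cannot be told apart.

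Across the 4 stages the Polycomb genes differed between the 2 cell types gene by gene rather than as a block. Cbx2 fell in XX cells after E12.5 and ended 12.4-fold below XY cells. Cbx6 was called higher in XX cells at E11.5, E12.5 and E13.5, and Cbx7 at E11.5, E12.5 and E15.5, each with its largest difference at E12.5. Among the PRC2 genes, Eed was higher in XX cells from E12.5 on, whereas both catalytic subunits were lower in XX cells at E15.5. Genes count as called here when the adjusted p was below 0.05 in edgeR's quasi-likelihood test over all 16190 genes tested. At E11.5, 3 of the 9 genes were called, all higher in XX, beside 42% of all genes tested (21.4% higher and 20.6% lower in XX). At E12.5, 4 were called (3 higher and 1 lower in XX), beside 62.1% of all genes (30.5% higher, 31.5% lower). At E13.5, 4 were called (2 higher, 2 lower), beside 66.1% (32.8% higher, 33.3% lower), and at E15.5, 6 were called (2 higher, 4 lower), beside 69.4% (34.9% higher, 34.4% lower). With only the libraries compared in the fit, 1 of the 9 was called at E11.5 and 8 at E13.5, where 2718 and 11284 of all genes were called. The median XX minus XY difference of the 9 genes was 0.33, -0.07, 0.23 and 0.22 on the log2 scale at the successive stages, and that of all genes tested lay between -0.01 and 0.05. The XX minus XY values at different stages share no libraries, but all rest on 1 fit.

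**Figure D1:**
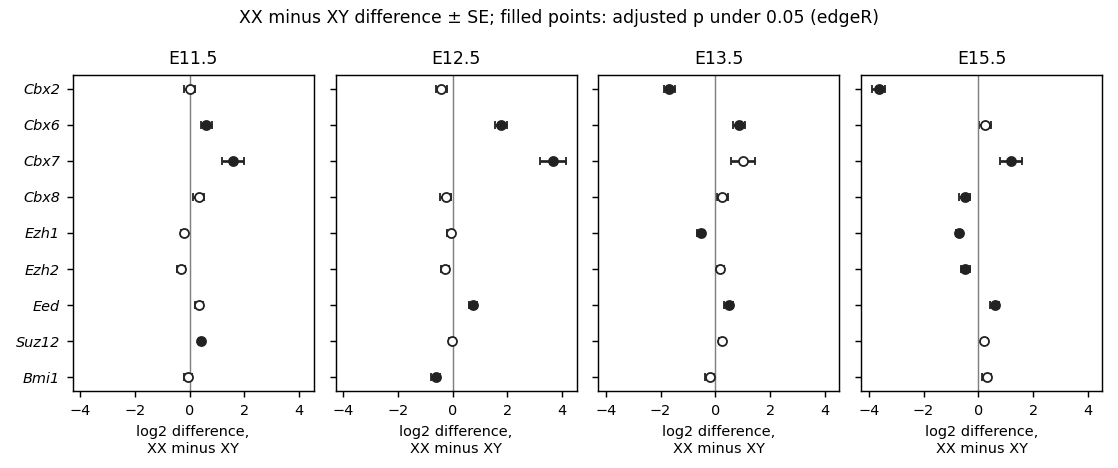
XX minus XY difference of each Polycomb gene at each stage (log2, horizontal axis, ± SE from edgeR, 3 libraries a group). Filled points have an adjusted p under 0.05. Cbx2 moves from 0.00 at E11.5 to -3.64 at E15.5, while Cbx7 lies to the right at all 4 stages and peaks at 3.67 at E12.5.

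Cbx2, the chromobox gene at chr11:119022962-119031270 on the plus strand (GRCm38), started at equal levels and ended far apart. At E11.5 its XX libraries held 82.1, 58.8 and 63.5 CPM and its XY libraries 59.9, 84.0 and 60.9 CPM. At E12.5 the XX libraries were at 65.3, 66.0 and 46.1 CPM and the XY libraries 85.7, 79.2 and 72.0 CPM. The ranges overlapped at E11.5, and at E12.5 all XY libraries lay above the XX libraries. At E13.5 the XX libraries held 22.6, 18.6 and 18.7 CPM against 61.0, 62.8 and 67.6 CPM in XY. At E15.5 the XX libraries held 6.08, 11.3 and 4.81 CPM against 94.8, 85.6 and 93.7 CPM in XY. The XX range lay far below the XY range at both of these stages, and XX replicate 2 was the highest of the 3 at E15.5. The XX minus XY difference was 0.00 ± 0.20 (log2 ± SE, adjusted p = 0.995) at E11.5 and -0.42 ± 0.20 (adjusted p = 0.079) at E12.5. It was -1.68 ± 0.21 at E13.5 (3.20-fold, adjusted p = 6.26e-07) and -3.64 ± 0.24 at E15.5 (12.4-fold, adjusted p = 1.98e-11). The E12.5 difference passed the test when only the libraries compared were fitted (-0.36, adjusted p = 0.0407, and -0.37, adjusted p = 0.00821, with the replicate block added) and without XX E15.5 replicate 2 (-0.36, adjusted p = 0.0415) or XX E15.5 replicate 3 (-0.42, adjusted p = 0.0458).

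The fall of Cbx2 in XX cells took place in 2 steps of similar size, the second over a longer interval (E13.5 to E15.5) than the first (E12.5 to E13.5). XX cells went from 59.2 ± 11.3 CPM (SD, n = 3) at E12.5 to 20.0 ± 2.28 CPM at E13.5, a change of -1.57 ± 0.21 (log2 ± SE, edgeR adjusted p = 2.12e-05), and on to 7.41 ± 3.46 CPM at E15.5, a change of -1.44 ± 0.23 (adjusted p = 0.000139). Over the whole span from E11.5 the level fell 9.28-fold (-3.21 ± 0.23, adjusted p = 9.64e-10). In XY cells the means were 68.3 ± 13.7, 79.0 ± 6.89, 63.8 ± 3.38 and 91.4 ± 5.03 CPM, and the test for any change across stages did not pass (adjusted p = 0.099), though it did without XX E15.5 replicate 2 (adjusted p = 0.0317) or XX E15.5 replicate 3 (adjusted p = 0.0498). The XX minus XY difference of Cbx2 changed with stage (sex-by-stage interaction, adjusted p = 1.14e-08). The calls of Cbx2 at E13.5 and E15.5, both of its XX steps and the interaction held under every alternative run.

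**Figure D2:**
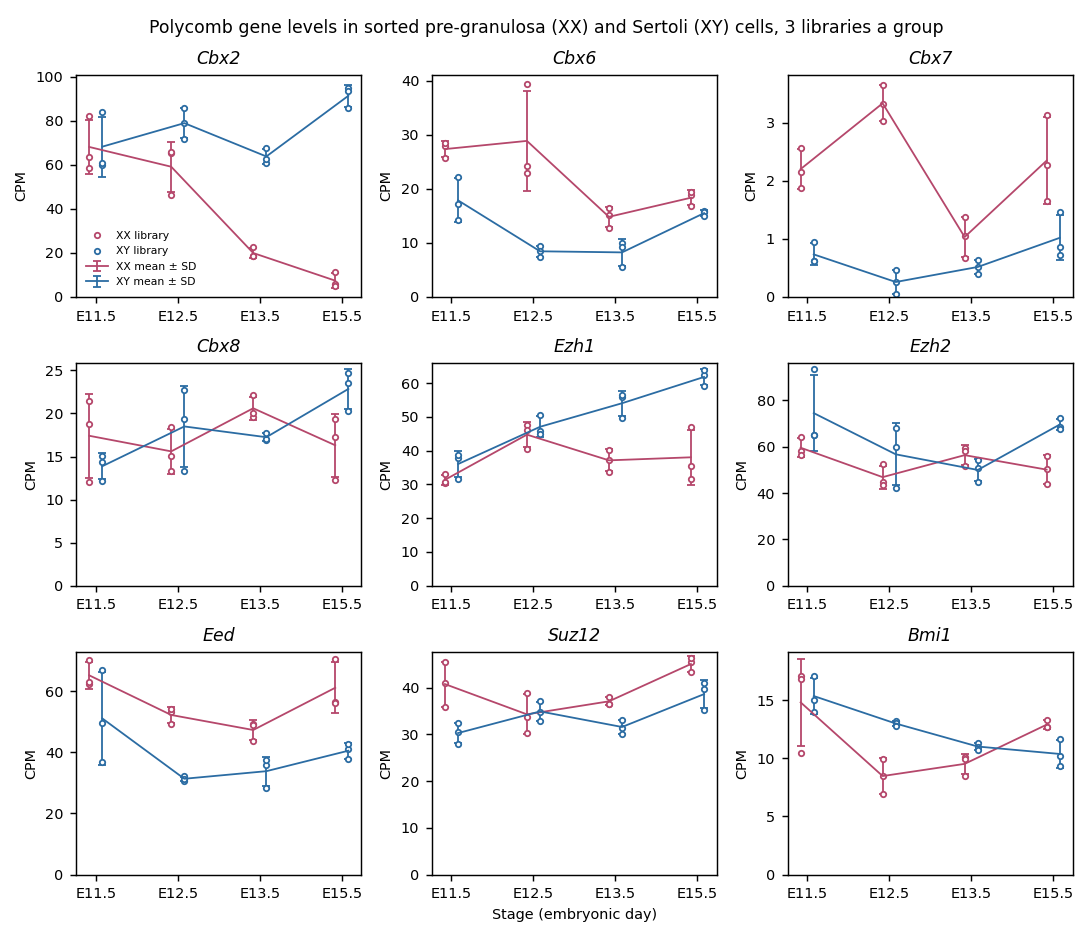
CPM of the 9 Polycomb genes by stage, XX in red and XY in blue; open points are libraries and lines join group means, with bars of ± SD (n = 3). All vertical axes start at 0. Cbx2 in XX falls to between 4.81 and 11.3 CPM at E15.5 while the XY libraries lie between 85.6 and 94.8 CPM.

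Genes of cell division were mostly lower in XX than in XY cells from E12.5 on, the direction of Cbx2 at E13.5 and E15.5. The summed level of 10 cell cycle genes (Mki67, Top2a, Cdk1, Ccnb1, Ccna2, Aurkb, Plk1, Bub1, Pcna and Mcm2) at E15.5 lay between 414 and 463 CPM in XX and between 2262 and 2305 CPM in XY libraries, and all 10 were called lower in XX. At E12.5, 9 were called, all lower in XX, and at E13.5, 7 were called lower and 1 higher. Of all genes tested, 31.5% and 33.3% were called lower at these stages and 30.5% and 32.8% higher. The sums were 619 to 735 CPM in XX against 988 to 1776 CPM in XY at E12.5. At E13.5 they were 593 to 649 against 690 to 1015 CPM. The XX sums of E12.5 and E13.5 overlap, and over that step Cbx2 went from between 46.1 and 66.0 CPM to between 18.6 and 22.6 CPM. In XY cells the sum was lowest at E13.5, where Cbx2 also had its lowest XY mean (63.8 CPM, libraries between 61.0 and 67.6 CPM). Both were highest in XY at E15.5, where the Cbx2 mean was 91.4 CPM. Over the 24 libraries, which share 8 groups, Cbx2 and the cell cycle sum correlated on the log2 scale at r = 0.759. The summed level of 10 germ cell markers at E15.5 lay between 109 and 176 CPM in XX and between 53.8 and 86.3 CPM in XY libraries, above all earlier stages. The part of these genes in the Cbx2 difference was not tested.

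**Figure D3:**
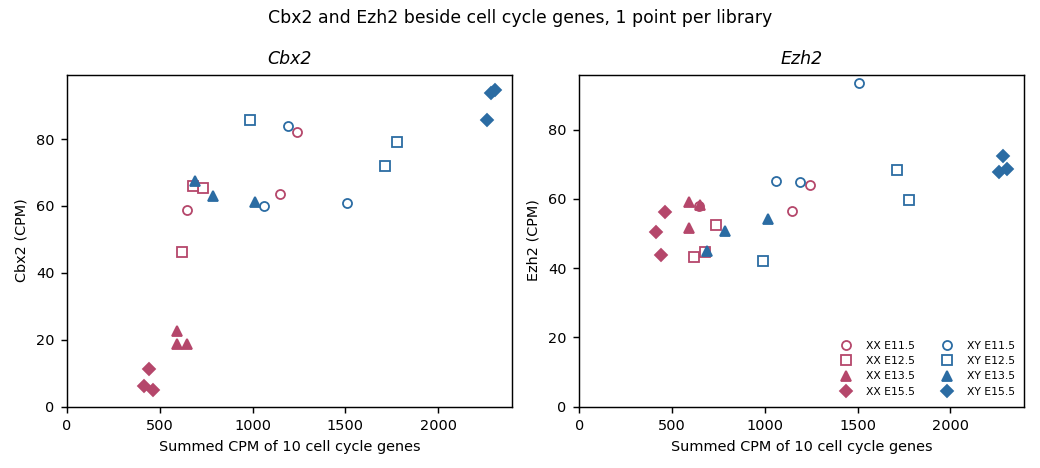
Summed CPM of 10 cell cycle genes (horizontal axis) against the CPM of Cbx2 (left) and Ezh2 (right), 1 point per library, XX in red and XY in blue, with the symbol giving the stage. The XX E13.5 libraries lie at 18.6 to 22.6 CPM of Cbx2 at cell cycle sums that overlap those of XX E12.5. On the left, XX E15.5 lies at the lowest sums and XY E15.5 at the highest.

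TPM values, which are scaled by transcript length and library, allow levels to be compared between genes. Of the summed TPM of the 4 chromobox genes Cbx2, Cbx6, Cbx7 and Cbx8, Cbx2 made up 49.3% ± 5.36 (SD, n = 3) of the XX total at E11.5 and 45.3% ± 6.36 at E12.5, then 23.6% ± 1.18 and 11.4% ± 4.2 at E13.5 and E15.5. In XY cells its share was 55.6% ± 3.07, 59.9% ± 5.45, 57.0% ± 5.61 and 55.8% ± 4.54 at the same stages. Cbx2 thus had the largest share of the 4 in every XY group, and in XX cells Cbx8 had the largest from E13.5 on. The share of Cbx8 in XX cells was 26.4% ± 5.44 and 25.6% ± 6.92 at E11.5 and E12.5, then 58.3% ± 1.83 and 55.8% ± 1.77 at E13.5 and E15.5. The summed level of the 4 genes went from 57.6 ± 10.1 TPM at E11.5 to 24.1 ± 5.25 TPM at E15.5 in XX cells and from 53.9 ± 8.10 to 64.8 ± 3.21 TPM in XY cells. The larger share of Cbx8 in XX cells stood beside a smaller sum: the change of Cbx8 itself across XX stages did not pass the test (adjusted p = 0.259).

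**Figure D4:**
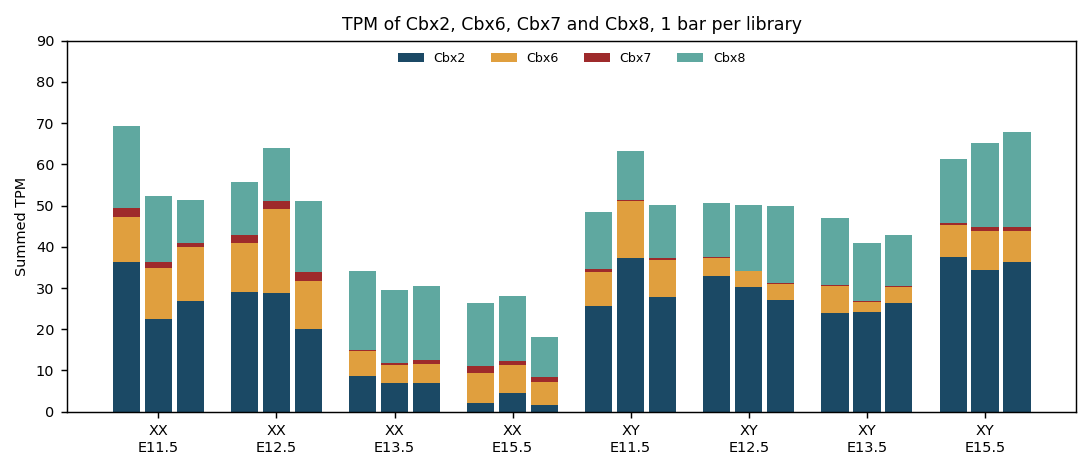
TPM of Cbx2, Cbx6, Cbx7 and Cbx8 stacked for each library (vertical axis from 0, 3 bars a group). The Cbx2 segment shrinks in the XX E13.5 and E15.5 bars, where it makes up 23.6% and 11.4% of the stack on average, and stays at 55.6% or more on average in XY.

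Cbx6 and Cbx7 lie 81118 bases apart on the minus strand of chromosome 15 (Cbx6 at 79823896-79834688, Cbx7 at 79915807-79971119, GRCm38) with no protein-coding gene lying wholly between them. Genes that overlap either one were not counted there. These include the protein-coding Apobec3, which overlaps Cbx7 by 100 bases, and Npcd, which overlaps Cbx6 by 10342 bases. Cbx7 encodes a chromobox subunit known from stem and progenitor cells, and Cbx6 one of the less studied subunits. Both were called higher in XX cells at E11.5 and E12.5, while at E13.5 Cbx6 alone was called and at E15.5 Cbx7 alone. Their promoters (250 bases before to 50 after the RefSeq start, GRCm38.p6, minus strand) are shown because of the shared calls at E11.5 and E12.5. Capitals mark matches, on either strand, to 7 motifs. These were the E2F site TTTGGCGC, the box read CCAAT, the E-box with the letters CACGTG, the site of GATA factors spelled AGATAA, the monomer site of nuclear receptors spelled AAGGTCA, the SOX site written as ACAATG, and the TCF/LEF site written as CTTTGA.
Cbx6 promoter, chr15:79834284-79834583: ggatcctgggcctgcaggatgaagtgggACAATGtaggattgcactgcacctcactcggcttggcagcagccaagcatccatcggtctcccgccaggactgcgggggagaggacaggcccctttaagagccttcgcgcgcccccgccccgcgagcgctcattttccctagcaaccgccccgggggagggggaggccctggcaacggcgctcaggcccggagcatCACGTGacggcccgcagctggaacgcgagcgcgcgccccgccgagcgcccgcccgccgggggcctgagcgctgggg
Cbx7 promoter, chr15:79932597-79932896: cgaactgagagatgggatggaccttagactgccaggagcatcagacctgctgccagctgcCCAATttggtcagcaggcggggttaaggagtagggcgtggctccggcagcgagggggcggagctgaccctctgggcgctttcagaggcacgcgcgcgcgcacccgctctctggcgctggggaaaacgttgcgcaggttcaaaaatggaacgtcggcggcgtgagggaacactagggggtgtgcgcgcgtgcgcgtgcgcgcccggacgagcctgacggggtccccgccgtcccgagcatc
The Cbx6 window held 1 E-box and 1 SOX match and the Cbx7 window 1 CCAAT box; these are found in 7.15%, 12.6% and 37.4% of 32851 promoters of the same length. The windows shared no motif. The Bmi1 promoter held the same E-box and SOX letters as that of Cbx6. Of the 9 genes, 8 were matched in the promoter table. The Cbx7 window lies inside the longer gene span of GENCODE M21, which starts further upstream.

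Cbx6 was at 28.0, 25.7 and 28.5 CPM in the XX libraries of E11.5 and at 14.2, 22.2 and 17.2 CPM in the XY ones. At E12.5 the XX libraries held 22.9, 39.5 and 24.3 CPM and the XY libraries 9.39, 7.38 and 8.59 CPM. XX replicate 2 was the highest there, and all XX libraries lay above all XY libraries at both stages. At E13.5 the values were 16.4, 12.8 and 15.3 CPM in XX against 10.1, 5.46 and 9.22 CPM in XY, and at E15.5 they were 18.8, 19.5 and 16.8 CPM against 15.9, 15.7 and 14.9 CPM. Between XX and XY the log2 difference was 0.61 ± 0.21 at E11.5 (adjusted p = 0.0206), 1.77 ± 0.21 at E12.5 (3.42-fold, adjusted p = 3.83e-07), 0.85 ± 0.22 at E13.5 (adjusted p = 0.00173) and 0.24 ± 0.21 at E15.5 (adjusted p = 0.315). The difference thus peaked at E12.5. Levels fell from E11.5 to E12.5 in XY cells (-1.08 ± 0.21, adjusted p = 0.000221) and from E12.5 to E13.5 in XX cells (-0.97 ± 0.21, adjusted p = 0.00143), and rose again in XY cells from E13.5 to E15.5 (0.92 ± 0.21, adjusted p = 0.0037). Between E11.5 and E15.5 the XX level changed by -0.58 ± 0.21 (adjusted p = 0.0223, and 0.0804 without XX E15.5 replicate 3).

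The Cbx6 difference was smaller on the TPM scale. With limma on log2(TPM + 1) it was 0.23 at E11.5 (adjusted p = 0.474) and 0.26 at E13.5 (adjusted p = 0.36), neither passing, and it turned to -0.32 at E15.5 (adjusted p = 0.241), while E12.5 passed there too. At E11.5 the count-based call was also lost without XX E11.5 replicate 3 (0.57, adjusted p = 0.0511) or XY E11.5 replicate 1 (0.46, adjusted p = 0.117) and with only the libraries compared (0.61, adjusted p = 0.0697, and 0.63, adjusted p = 0.0792, with the replicate block added). The erythroid, immune and interstitial sums of the XX E11.5 libraries stand beside that call, and their part in it was not tested. Cbx6 shares 563 exonic bases with Npcd on the same strand. Npcd was between 0 and 0.455 CPM in all libraries.

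Cbx7 was the lowest of the 9 genes on the TPM scale in all 8 groups. Its XX libraries held 2.57, 2.16 and 1.88 CPM at E11.5, 3.03, 3.32 and 3.65 CPM at E12.5, then 0.667, 1.37 and 1.06 CPM at E13.5 and 3.13, 2.27 and 1.65 CPM at E15.5. Its XY libraries held 0.951, 0.619 and 0.627 CPM, then 0.467, 0.259 and 0.0457 CPM, then 0.387, 0.518 and 0.643 CPM, and last 0.868, 0.730 and 1.46 CPM. The XX libraries were above the XY libraries at each stage. The XY E12.5 values rest on 10, 6 and 1 estimated counts and the XX E12.5 values on 78, 73 and 83. XX differed from XY by 1.58 ± 0.39 at E11.5 (adjusted p = 0.00287), 3.67 ± 0.46 at E12.5 (12.7-fold, adjusted p = 5.70e-07), 0.999 ± 0.44 at E13.5 (adjusted p = 0.0502) and 1.20 ± 0.41 at E15.5 (adjusted p = 0.013).

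The calls of Cbx7 at E11.5 and E12.5 held under every alternative in which it was tested, but the size at E12.5 did not. It was 4.43 when XY E12.5 replicate 1 was left out and 3.26 when replicate 3 of that group was, and with limma on log2(TPM + 1) it was 1.41, below the 1.60 of Cbx6. The erythroid markers summed to between 520 and 1214 CPM in the XX and between 16.4 and 31.2 CPM in the XY libraries of E12.5, and their part in the difference was not tested. The same holds for the higher erythroid sums of the XX E11.5 libraries and the E11.5 call. The E13.5 value passed in 19 of 34 alternatives, for example 1.22 (adjusted p = 0.0292) without XX E13.5 replicate 1. The E15.5 call was lost without XX E15.5 replicate 1 (0.94, adjusted p = 0.0697) or XY E15.5 replicate 1 (1.07, adjusted p = 0.054) and with limma on log2(TPM + 0.1) (0.85, adjusted p = 0.0671). Between stages Cbx7 fell in XX cells from E12.5 to E13.5 (-1.66 ± 0.40, adjusted p = 0.00327) and in XY cells from E11.5 to E12.5 (-1.49 ± 0.47, adjusted p = 0.0111, and 0.0556 with only the libraries compared); the XY change was -2.27 without XY E12.5 replicate 1. Its XX step from E13.5 to E15.5 (1.13 ± 0.41, adjusted p = 0.0463) was lost in 20 of 34 alternatives. Without XX E13.5 replicate 1 it was 0.91 (adjusted p = 0.177), without XX E13.5 replicate 3 it was 1.14 (adjusted p = 0.1), and without XX E15.5 replicates 1 or 2 it was 0.88 and 1.13 (adjusted p = 0.176 and 0.0811). Cbx7 shares 100 exonic bases with Apobec3 on the opposite strand, which was between 18.6 and 40.6 CPM. Because the sources used here do not say whether counting used strand, reads of the 2 genes in that overlap cannot be told apart.

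Cbx8, a chromobox subunit whose gene lies 5034 bases from Cbx2 on the opposite strand (chr11:119036305-119040969, GRCm38), did not follow its neighbour in XX cells. Its XX libraries held 21.4, 18.8 and 12.0 CPM at E11.5, 13.3, 15.05 and 18.5 CPM at E12.5, then 19.6, 20.0 and 22.1 CPM at E13.5 and 19.4, 17.3 and 12.3 CPM at E15.5. Its XY libraries held 15.1, 12.2 and 14.4 CPM, then 13.4, 19.4 and 22.7 CPM, then 17.7, 16.9 and 17.1 CPM, and last 20.3, 23.5 and 24.7 CPM. The groups overlapped at E11.5 and E12.5, and at E15.5 all XX libraries lay below the XY libraries. Between E11.5 and E15.5 the XY level rose by 0.72 ± 0.20 (log2 ± SE, adjusted p = 0.00432). On the log2 scale XX minus XY was 0.33 ± 0.20, -0.25 ± 0.20 and 0.26 ± 0.20 at E11.5, E12.5 and E13.5 (adjusted p = 0.194, 0.299 and 0.271), and -0.49 ± 0.20 at E15.5 (adjusted p = 0.0367). The E11.5 value passed without XX E11.5 replicate 3 (0.52, adjusted p = 0.0381) and the E13.5 value when only the libraries compared were fitted (0.30, adjusted p = 0.0119). The E15.5 call was lost in 14 of 35 alternatives, with adjusted p up to 0.201 (-0.32) without XX E15.5 replicate 3. Of the libraries compared, XX E15.5 replicate 2 (-0.47, adjusted p = 0.0931) and XY E15.5 replicates 2 (-0.40, adjusted p = 0.147) and 3 (-0.36, adjusted p = 0.183) also ended it. It was lost as well without XX E12.5 replicates 2 or 3, XX E13.5 replicate 2, XY E11.5 replicate 3, XY E12.5 replicate 1 or XY E13.5 replicates 1 or 2, at -0.42 in each case.

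Bmi1, a Pcgf subunit of canonical PRC1 known for repressing the cell cycle inhibitor locus Cdkn2a, fell early in XX cells. Its XX libraries held 17.1, 10.5 and 16.9 CPM at E11.5 and 9.98, 8.50 and 6.94 CPM at E12.5, a change of -0.80 ± 0.16 (log2 ± SE, adjusted p = 0.000831). They held 8.52, 10.1 and 9.97 CPM at E13.5 and 12.7, 13.3 and 12.7 CPM at E15.5. The XX groups of E11.5 and E12.5 did not overlap, and the lowest E11.5 library was replicate 2. The XY libraries held 15.03, 13.99 and 17.1 CPM, then 13.2, 13.03 and 12.7 CPM, then 11.3, 10.96 and 10.8 CPM, and last 11.7, 10.2 and 9.30 CPM, a change of -0.56 ± 0.16 from E11.5 to E15.5 (adjusted p = 0.00491). XX cells were lower at E12.5 by -0.61 ± 0.16 (adjusted p = 0.00244), and the difference was -0.06 ± 0.16, -0.21 ± 0.16 and 0.31 ± 0.16 at E11.5, E13.5 and E15.5 (adjusted p = 0.805, 0.272 and 0.0958). The XX step was lost when only the libraries compared were fitted (-0.84, adjusted p = 0.0837). Over that step the erythroid sums of the XX libraries went from between 3229 and 25907 CPM to between 520 and 1214 CPM. Their part in the fall of Bmi1 was not tested. On the TPM scale the E12.5 difference was -0.28 (limma, adjusted p = 0.143), the XY change -0.38 (adjusted p = 0.0555) and the E15.5 difference -0.06 (adjusted p = 0.74). The E15.5 value passed in 10 of 35 alternatives, 8 of which left out 1 library, with adjusted p from 0.032 (0.38, without XX E12.5 replicate 3). Cdkn2a itself was not tested, with at most 9 estimated counts in any library.

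Ezh2, the catalytic subunit of PRC2 typical of dividing cells (chr6:47530139-47595341, minus strand, GRCm38), was the leading gene of the 9 on the TPM scale in all 4 XY groups, at means of 49.4 to 74.9 TPM. Its promoter (minus strand, GRCm38.p6) is shown because it held both an E2F match and 3 CCAAT boxes, motifs known from genes of dividing cells.
Ezh2 promoter, chr6:47594981-47595280: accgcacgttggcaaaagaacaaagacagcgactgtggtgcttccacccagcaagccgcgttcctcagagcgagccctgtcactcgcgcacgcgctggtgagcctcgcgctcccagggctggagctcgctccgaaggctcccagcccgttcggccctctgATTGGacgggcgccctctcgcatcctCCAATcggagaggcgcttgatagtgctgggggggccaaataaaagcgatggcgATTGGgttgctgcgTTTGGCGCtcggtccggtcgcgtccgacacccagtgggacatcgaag
Capitals mark these 4 matches, which do not overlap. A TTTGGCGC match was found in 0.514% of the 32851 promoters and 3 or more CCAAT boxes in 3.37%.

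In XX cells Ezh2 was at 64.1, 58.0 and 56.5 CPM at E11.5, 52.5, 44.7 and 43.3 CPM at E12.5, then 51.6, 59.2 and 58.2 CPM at E13.5 and 50.4, 43.8 and 56.1 CPM at E15.5. In XY cells it was at 65.2, 64.8 and 93.4 CPM, then 42.1, 59.7 and 68.3 CPM, then 54.1, 50.8 and 44.9 CPM, and last 68.6, 67.8 and 72.3 CPM. The XY E15.5 libraries all lay above the XX E15.5 libraries, and XY E11.5 replicate 3 was the highest of all 24. The XX minus XY difference was -0.32 ± 0.15, -0.27 ± 0.15 and 0.18 ± 0.15 at the first 3 stages (adjusted p = 0.0944, 0.126 and 0.323) and -0.47 ± 0.15 at E15.5 (adjusted p = 0.00988). The E15.5 call was lost without XX E15.5 replicate 2 (-0.31, adjusted p = 0.127) or XY E15.5 replicate 3 (-0.37, adjusted p = 0.0739). The E11.5 value passed without XY E11.5 replicate 2 (-0.43, adjusted p = 0.0493), the E12.5 value without XY E12.5 replicate 1 (-0.40, adjusted p = 0.0223) and the E13.5 value when only the libraries compared were fitted (0.23, adjusted p = 0.0328). The cell cycle sums, 414 to 463 CPM in XX and 2262 to 2305 CPM in XY at E15.5, differed in the same direction as Ezh2 there. They were also lower in XX at E12.5 (619 to 735 against 988 to 1776 CPM) and E13.5 (593 to 649 against 690 to 1015 CPM). The Ezh2 differences at those stages were -0.27 and 0.18, neither called. The part of the cell cycle genes in the Ezh2 difference was not tested.

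Across stages Ezh2 showed no change past the test in XX cells (adjusted p = 0.157) and did change in XY cells (adjusted p = 0.00724). The XY level changed by -0.39 ± 0.15 from E11.5 to E12.5 (adjusted p = 0.0352, in groups that overlap) and by 0.48 ± 0.15 from E13.5 to E15.5 (adjusted p = 0.0294). The first of these was lost in 7 of 35 alternatives. Among them were a fit of only the libraries compared (-0.47, adjusted p = 0.0967), limma on log2(TPM + 1) (-0.45, adjusted p = 0.0556), and leaving out XY E11.5 replicate 3 (-0.27, adjusted p = 0.159) or XY E12.5 replicate 1 (-0.28, adjusted p = 0.121). The second was lost in 11 of 35 alternatives. Leaving out any 1 of the 6 libraries compared ended it, with changes between 0.40 and 0.51 and adjusted p between 0.0531 and 0.144, as did leaving out XX E13.5 replicate 2 (0.45, adjusted p = 0.0504).

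Ezh1, the alternative catalytic subunit, was higher at the end than at the start in XY cells and lower in XX than in XY cells from E13.5 on. Its XY libraries held 37.8, 38.7 and 31.6 CPM at E11.5, 50.6, 45.8 and 44.9 CPM at E12.5, then 49.8, 55.8 and 56.6 CPM at E13.5 and 59.3, 62.5 and 63.8 CPM at E15.5. Its XX libraries held 33.0, 30.5 and 30.6 CPM, then 47.7, 46.0 and 40.6 CPM, then 40.3, 33.8 and 37.3 CPM, and last 35.6, 47.0 and 31.5 CPM. The groups overlapped at E11.5 and E12.5 and were apart at E13.5 and E15.5. From E11.5 to E15.5 the XY level rose by 0.78 ± 0.12 (1.72-fold, adjusted p = 1.08e-05), and in XX cells Ezh1 rose from E11.5 to E12.5 by 0.51 ± 0.12 (adjusted p = 0.0028). Between XX and XY the log2 difference was -0.20 ± 0.12 and -0.07 ± 0.12 at E11.5 and E12.5 (adjusted p = 0.19 and 0.617), -0.54 ± 0.12 at E13.5 (adjusted p = 0.000486) and -0.70 ± 0.12 at E15.5 (adjusted p = 2.73e-05). The XX step was lost when only the libraries compared were fitted (0.48, adjusted p = 0.0559). It starts from the XX E11.5 libraries with their high erythroid sums, whose part in it was not tested. The XY step from E11.5 to E12.5 (0.39 ± 0.12, adjusted p = 0.0102) was lost without XY E11.5 replicate 3 (0.22, adjusted p = 0.17), XY E12.5 replicate 1 (0.27, adjusted p = 0.11) or XY E12.5 replicate 2 (0.34, adjusted p = 0.0533) and on the TPM scale (limma, 0.13, adjusted p = 0.458). Of the summed TPM of Ezh1 and Ezh2, Ezh1 made up between 18.8% ± 4.04 (XY E11.5) and 32.0% ± 3.73 (XX E12.5), so Ezh2 was the more abundant of the pair in all 8 groups.

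Eed, the core subunit that reads the methyl mark, was the one of the 4 PRC2 members called higher in XX at 3 stages. In XX cells it was at 62.3, 63.1 and 70.1 CPM at E11.5, 49.2, 53.2 and 54.2 CPM at E12.5, then 43.6, 49.4 and 48.9 CPM at E13.5 and 56.6, 56.0 and 70.6 CPM at E15.5. In XY cells it was at 36.7, 49.5 and 67.0 CPM, then 32.1, 30.8 and 31.2 CPM, then 28.4, 35.7 and 37.3 CPM, and last 41.1, 42.7 and 37.7 CPM. From E12.5 on all XX libraries lay above all XY libraries. XX differed from XY by 0.35 ± 0.15 at E11.5 (adjusted p = 0.0646), 0.74 ± 0.15 at E12.5 (1.67-fold, adjusted p = 0.000268), 0.48 ± 0.15 at E13.5 (adjusted p = 0.00841) and 0.59 ± 0.15 at E15.5 (adjusted p = 0.00159). At E11.5 the deviations of same-numbered libraries correlated, though pairing by number is not settled. A fit with the replicate number as a block called Eed higher in XX there (0.37, adjusted p = 0.0284). With only the libraries compared in that fit Eed was not called (0.38, adjusted p = 0.193). The E11.5 difference also passed without XY E11.5 replicate 3 (0.61, adjusted p = 0.00124) or XY E13.5 replicate 1 (0.37, adjusted p = 0.0464). On the TPM scale the E15.5 difference was 0.24 (limma, adjusted p = 0.0916). The XY level fell from E11.5 to E12.5 by 0.70 on the log2 scale (SE 0.15, adjusted p = 0.000548), and the change of the XX minus XY difference with stage did not pass (adjusted p = 0.379). Eed shares 261 exonic bases with E230029C05Rik on the opposite strand, which was at or below 1.36 CPM.

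Suz12, the scaffold subunit of PRC2, differed by at most 0.43 on the log2 scale. Its XX libraries held 45.5, 41.0 and 35.9 CPM at E11.5, 38.9, 33.7 and 30.4 CPM at E12.5, then 38.1, 36.6 and 36.6 CPM at E13.5 and 43.3, 45.5 and 46.5 CPM at E15.5. Its XY libraries held 32.4, 28.0 and 30.5 CPM, then 34.8, 37.1 and 32.9 CPM, then 33.2, 31.5 and 30.2 CPM, and last 39.8, 41.0 and 35.2 CPM. The groups overlapped at E12.5 alone. On the log2 scale XX minus XY was 0.43 ± 0.10 at E11.5 (1.35-fold, adjusted p = 0.0019), -0.03 ± 0.10 at E12.5 (adjusted p = 0.843), 0.23 ± 0.10 at E13.5 (adjusted p = 0.0522) and 0.22 ± 0.10 at E15.5 (adjusted p = 0.0585). The E11.5 call was lost on the TPM scale (limma, 0.27, adjusted p = 0.102) and in a fit of the compared libraries alone (0.42, adjusted p = 0.0955). The part of the high erythroid and immune sums of the XX E11.5 libraries in that call was not tested. The values of E13.5 and E15.5 passed in 24 and 14 of 35 alternatives, the lowest adjusted p with 1 library left out being 0.0145 and 0.0139 (0.30 in both, without XX E12.5 replicate 3). The step from E13.5 to E15.5, 0.28 ± 0.10 in XX (adjusted p = 0.0479) and 0.29 ± 0.10 in XY (adjusted p = 0.0464), was lost in 29 and 22 of 35 alternatives. Leaving out any 1 library ended the XX call (adjusted p from 0.0605 to 0.151), and leaving out any 1 of the 6 libraries compared ended the XY call (adjusted p up to 0.235). From E11.5 to E15.5 the XY change was 0.35 ± 0.10 (adjusted p = 0.00557). It was lost without XY E11.5 replicate 2 (0.24, adjusted p = 0.0756), XY E11.5 replicate 3 (0.27, adjusted p = 0.0605) or XY E15.5 replicate 2 (0.23, adjusted p = 0.116) and on the TPM scale (limma, 0.15, adjusted p = 0.342).

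Change across the 4 stages was tested for each gene within each cell type. In XX cells 7 of the 9 genes passed, all except Cbx8 and Ezh2, beside 74% of all genes tested. In XY cells 8 of 9 passed, all except Cbx2, beside 70.3%. The XX minus XY difference changed with stage for 6 of 9 genes, beside 70.1%; these were Cbx2, Cbx6, Cbx7, Cbx8, Ezh1 and Bmi1, while Eed (adjusted p = 0.379), Suz12 (0.054) and Ezh2 (0.0572) did not pass. For the 3 successive XX steps 2, 3 and 3 genes were called, beside 34%, 31.7% and 25.6% of all genes. For the XY steps the counts were 5, 0 and 3, beside 51.9%, 16.6% and 21.3%. At the XY step from E12.5 to E13.5, where edgeR called 0 of the 9, 0 had an unadjusted p under 0.05, DESeq2 and limma on log2(TPM + 1) called 0 too, and 1 was called when only the libraries compared were fitted or without XY E12.5 replicate 1. From E11.5 to E15.5, 2 genes were called in XX and 4 in XY, beside 59.4% and 57.7%. Some of these calls were close to the threshold: the change across stages was lost in 7 of 32 alternatives for Eed in XX, 17 for Cbx8 in XY and 16 for Suz12 in XY. That of the XX minus XY difference was lost in 17 of 32 for Cbx8 and in 3, all on the TPM scale, for Bmi1, and it passed in 10 of 32 for Ezh2.

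Ranked by TPM within each group, Eed led in every XX group and Ezh2 in every XY group, although the ranges of these 2 genes overlapped in XX E13.5 and in XY at E11.5, E12.5 and E13.5. Cbx2 was the next gene in all 4 XY groups, at 30.2 ± 6.21, 30.1 ± 2.96, 24.8 ± 1.39 and 36.1 ± 1.57 TPM, and did not overlap the gene below it in any of them. In XX cells Cbx2 went from rank 3 at E11.5 (28.6 ± 6.99 TPM) and E12.5 (25.9 ± 5.10 TPM) to rank 6 at E13.5 (7.43 ± 0.962 TPM) and rank 8 at E15.5 (2.83 ± 1.49 TPM), above Cbx7 alone. In XX E11.5 the ranges of Suz12, Cbx8 and Ezh1, which followed Cbx2, each overlapped that of the next gene. Bmi1 stayed between 4.26 and 8.49 TPM on average in all groups.

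The genes most alike to each member were taken as the 3 with the highest Pearson r of log2(CPM + 1) over the 24 libraries, among 9785 genes with a mean of at least 10 CPM. These values describe libraries that share 8 groups, so genes that differ between the cell types correlate through the groups. For Cbx2 they were Nup188 (r = 0.991), which encodes a nuclear pore protein, Vars (0.986), the valine tRNA synthetase, and Rrp12 (0.984), a ribosome biogenesis factor. For Ezh2 they were Hmgb2 (0.882), a chromatin protein of dividing cells, Tyms (0.837), which makes thymidylate for DNA synthesis, and Recql (0.799), a DNA helicase. For Ezh1 they were Espn (0.924), Rundc1 (0.916) and Snx33 (0.913), and for Eed Nadk2 (0.922), Ccdc80 (0.916) and Tgfb2 (0.916). For Cbx6 they were Arrb2 (0.907), Samd14 (0.884) and Capn2 (0.862), and for Cbx7 Slc37a2 (0.897), Adcy3 (0.885) and Cnnm2 (0.845). Likeness was lower for Suz12 (Med13l, 0.809) and Cbx8 (Junb, 0.767, an immediate-early gene), and Bmi1 was most alike to Braf (0.894). Among the 9 genes themselves, Cbx6 followed Cbx7 (r = 0.787) and Eed (0.770), and Ezh1 went against Eed (-0.697).

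Of the other 31 genes of the Polycomb lists, 8, 22, 20 and 22 were called between XX and XY at the 4 successive stages, beside 42%, 62.1%, 66.1% and 69.4% of all genes tested. Of these, 6, 11, 6 and 8 were higher in XX. In the variant PRC1 list (15 genes) 9 were lower and 1 higher in XX at E13.5, beside 33.3% lower and 32.8% higher among all genes, and 10 were lower and 4 higher at E15.5, beside 34.4% and 34.9%. Its median XX minus XY difference was -0.75 and -0.64 on the log2 scale at those stages, against 0.01 and 0.05 for all genes tested. Fbrsl1, a partner of variant PRC1 of the Auts2 family, averaged 14.3 CPM in XX against 68.7 CPM in XY at E13.5 (-2.26 ± 0.14, adjusted p = 5.33e-12). L3mbtl2, E2f6 and Mga, subunits of the variant PRC1 built on Pcgf6, were all lower in XX at E13.5 and E15.5, with log2 differences of -1.35, -1.67 and -1.003 at E15.5. Pcgf1, the Pcgf subunit that works with Kdm2b and Bcor, went the other way and was called higher in XX at all 4 stages, from 0.37 ± 0.14 at E11.5 to 1.45 ± 0.14 at E15.5 (adjusted p = 0.0376 and 1.15e-08).

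Among the other canonical PRC1 genes, Phc3, a polyhomeotic subunit, was lower in XX at all 4 stages, between -0.50 ± 0.15 and -0.92 ± 0.15. Its relative Phc2 was higher in XX from E12.5 on, by 1.08 ± 0.11, 0.81 ± 0.11 and 0.60 ± 0.11. The ligase gene Ring1 changed sign, being higher in XX at E12.5 (0.80 ± 0.23, adjusted p = 0.00564) and lower at E13.5 (-1.50 ± 0.24, adjusted p = 1.54e-05). Rnf2, the alternative ligase gene, was not called at any stage. In the PRC2 list the cofactor Jarid2 was higher in XX from E12.5 on (0.65, 0.61 and 0.88), the histone-binding subunit Rbbp4 lower (-0.88, -0.70 and -0.93), and Rbbp7 higher at E13.5 and E15.5 (0.37 and 0.78). Counts for the whole lists, members included, were 5, 10, 6 and 6 of 13 canonical PRC1 genes, 5, 9, 10 and 14 of 15 variant PRC1 genes and 1, 7, 8 and 8 of 12 PRC2 genes, beside the same backgrounds.

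**Figure D5:**
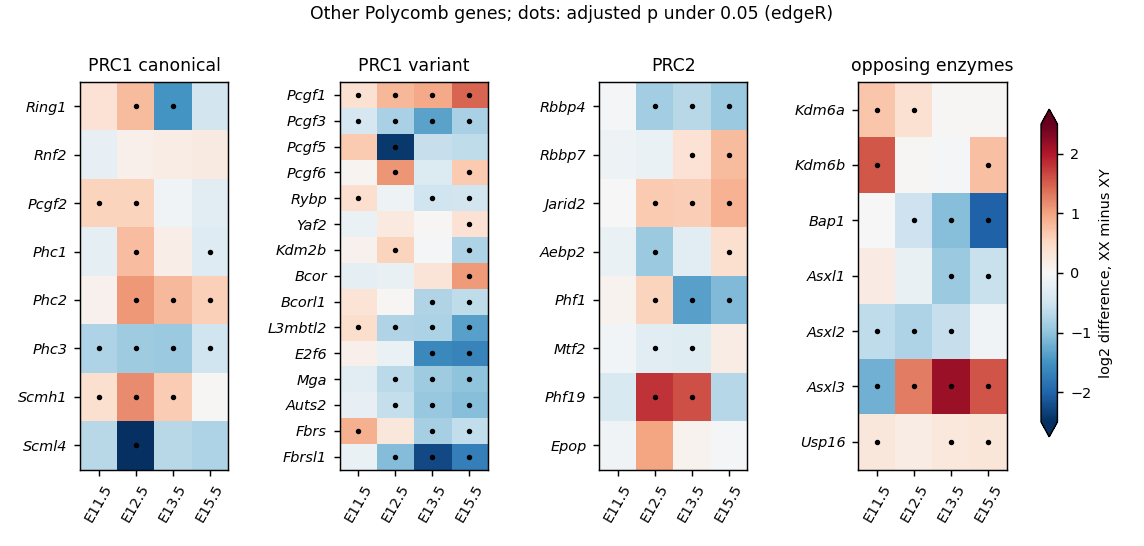
XX minus XY difference (log2, colour, clipped at ± 2.5) of the other genes of canonical PRC1, variant PRC1 and PRC2, by stage. The last panel holds the enzymes and Asxl cofactors that oppose them. Black dots mark an adjusted p under 0.05 in edgeR. Pcgf1 is red at all 4 stages, while Fbrsl1, E2f6 and Mga are blue at E13.5 and E15.5.

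Of 7 genes listed as opposing Polycomb, which are enzymes and Asxl cofactors, 5, 4, 5 and 5 were called, beside 42%, 62.1%, 66.1% and 69.4% of all genes tested. Bap1, which removes ubiquitin from histones, was at 114 CPM in both cell types at E11.5 and at 40.8 ± 10.1 CPM in XX against 166 ± 3.50 CPM in XY at E15.5 (-2.03 ± 0.13, adjusted p = 2.19e-11). Its difference changed with stage (adjusted p = 5.04e-08), as that of Cbx2 did. The demethylase Kdm6a, an X-linked gene, was higher in XX at E11.5 (0.70 ± 0.11) and E12.5 (0.39 ± 0.11) and not called later (0.02 and 0.03). Kdm6b, the related demethylase, was higher in XX at E15.5 (0.75 ± 0.17, adjusted p = 0.000568) and at E11.5 (1.56 ± 0.17, adjusted p = 4.39e-07), the stage of the high erythroid and immune sums, whose part was not tested. Asxl3 was lower in XX at E11.5 (-1.21 ± 0.27) and higher later (1.28, 2.17 and 1.56, each called). Of 4 genes listed as Polycomb targets, Wnt4, which is also in the pre-granulosa marker list used here, and Lhx9 were higher in XX at every stage, Wnt4 by 2.26 ± 0.19 at E11.5 and 6.59 ± 0.26 at E15.5. Cdkn2b, a cell cycle inhibitor, was low. It was higher in XX at E11.5 (0.747 against 0.230 CPM, 1.72 ± 0.55, adjusted p = 0.0168) and lower at E15.5 (0.595 against 2.41 CPM, -2.05 ± 0.53, adjusted p = 0.00176).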

How the data were processed

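RNA-seq of polyadenylated RNA was measured in 24 libraries, 3 for each of 8 groups. The libraries were made with a low-input kit that amplifies cDNA, per the labels' protocols. The deposited tables hold estimated counts per gene, of which 17.5% are not whole, and the authors' TPM values, which do not add up to their full total (shares of 0.939 to 0.962 per library) over the genes listed. The genome build was mm10, per the submitters' processing notes; the aligner, the counter and the use of strand are not given in the sources used here.

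Counts were rounded and fitted in edgeR 4.0.16 (R 4.3.3) with TMM scaling, the default low-count filter, 8 group terms and robust quasi-likelihood, leaving 16190 genes and 16 residual degrees of freedom. The common biological coefficient of variation was 17.4%. P-values are two-sided and adjusted by Benjamini-Hochberg over all genes tested. TPM shares, promoter motif searches and counts of called genes were computed by scripts. Of these, only the edgeR fit was tested on simulated counts, for XX against XY at E11.5. Alternatives used DESeq2 1.42.0, limma 3.58.1 on log2 TPM, other filters and scalings, and each library left out in turn. Total counts of 11275251 to 37256881 make 3 counts the floor of detection, and this covers counting error only.

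Positions come from GENCODE M21 (GRCm38) and promoters from RefSeq (GRCm38.p6). The members and the lists were chosen with earlier results of these data known. Every member and list gene could be named, with the 3 most alike genes per member. Of the listed genes, 1 is not reported here and was left out of the list counts and sums. Deviations of same-numbered libraries from their group means correlated above 0.1 in every pair for 1 of 10 contrasts, XX against XY at E11.5 (0.132 to 0.351). Differently numbered libraries of that contrast correlated from -0.332 to 0.142. These ranges overlap, so whether the numbers pair those libraries is not settled. Over all contrasts the same-number correlations ran from -0.193 to 0.351.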

Additional observations from a re-analysis of the deposited data

Results flagged for a closer look

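For 6 of the 9 genes the XX minus XY difference was not the same at the 4 stages, by the sex-by-stage interaction test in edgeR with adjustment over all genes tested; 70.1% of all genes tested passed it. The adjusted p was 1.14e-08 for Cbx2, whose difference went from 0.00 to -3.64 on the log2 scale. It was 0.000913 for Cbx6 and 0.00278 for Cbx7, whose differences were largest at E12.5 (1.77 and 3.67). It was 0.00791 for Ezh1, with differences from -0.07 at E12.5 to -0.70 at E15.5, and 0.0102 for Bmi1, with -0.61 at E12.5 and 0.31 at E15.5. It was 0.0363 for Cbx8, with 0.33 at E11.5 and -0.49 at E15.5, and that call was lost with the replicate block (adjusted p = 0.0509).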

How the results depend on the processing

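Of 2884 recomputed gene-level values, 2494 kept their direction and their side of the threshold, 234 lost the call, 99 gained one and 57 changed sign, the last all in differences that were not called. Counts of called members stayed within 1.5 times in 460 of 516 cases. The cause of the changes was not tested. Cbx7 had no value with at least 10 counts in every library. With only the libraries compared, the members called were 1 at E11.5 and 8 at E13.5 (XX against XY), 0, 5 and 5 for the successive XX steps, 3, 1 and 7 for the XY steps; with the replicate block added they were 1 and 7 at E11.5 and E13.5, 0 and 5 for the first and last XX steps, 6 for the last XY step and 1 for XX E15.5 against E11.5. Requiring an absolute log2 difference of at least 1 left 1, 2, 1 and 2 members at the 4 stages, 0 for the first XX step, 2 and 0 for the first and last XY steps, 1 for XX and 0 for XY from E11.5 to E15.5. On the TPM scale (all 3 limma settings) 1 member was called at E11.5, and without a filter 2 for XY from E11.5 to E15.5. The last XX step gave 1 with DESeq2 size factors, no filter or at least 10 counts in every library, and the last of these gave 3 for the first XY step. Leaving out 1 library gave 2 to 5 members for the first XX step, 1 to 3 for the last XX step, 3 to 6, 0 to 1 and 1 to 3 for the XY steps.

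The replicate number as a block in the fit of all libraries changed the calls beside which it is given, and otherwise called 4, 5 and 7 members at the 3 later stages, with Suz12 passing at E13.5 (adjusted p = 0.0366), E15.5 (0.0372) and in the interaction (0.0349) and Cbx7 no longer passing from E13.5 to E15.5 in XX (0.0611). At E11.5 it called 4 members. Beyond E11.5 the libraries share only a number, and at E11.5 pairing by number is not settled either.

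The sign changed for Cbx2 at E11.5 (0.0234 with DESeq2 size factors, 0.0304 with at least 10 counts, 0.00294 with the replicate block, 0.0235 with DESeq2, -0.17 to 0.16 with 1 library left out) and Bmi1 at E11.5 (-0.18 to 0.14 with 1 left out). It changed for Suz12 at E12.5 (0.0169 with DESeq2 size factors, 0.0795 with at least 10 counts, 0.0176 with DESeq2, 0.14, 0.15 and 0.14 on the TPM scale, 0.0364 with only the libraries compared, 0.0322 with the block added, -0.0594 to 0.105 with 1 left out). It changed for Ezh1 at E12.5 (0.0332 with at least 10 counts, 0.13, 0.14 and 0.13 on the TPM scale, -0.0735 to 0.0437 with 1 left out). On the TPM scale it also changed for Cbx6 at E15.5 (-0.32, -0.36 and -0.32) and Bmi1 at E15.5 (-0.0646, -0.0724 and -0.0646). The TPM scale moved the median of all genes by 0.196 at E12.5, by -0.207 for XX E13.5 minus E12.5, by -0.196 for XY E12.5 minus E11.5 and by -0.15 for XY E15.5 minus E11.5, and at least 10 counts moved it by 0.106 at E12.5 and by -0.12 for XY E12.5 minus E11.5.

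Genes called among all tested moved by over 1.5 times in 26 of 516 cases. At E11.5 they went from 6803 to 2718 with only the libraries compared, 2746 with the block added and 2784 with the log2 threshold. That threshold gave 5434 (from 10046), 6071 (from 10706) and 6704 (from 11230) at the later stages. For the XX steps the counts went from 5505 to 1176, 572 and 2107 under the same 3 settings, from 5129 to 1404 and from 4144 to 1275 with the threshold, the last also to 2726 without XX E13.5 replicate 1 and 2540 without XX E15.5 replicate 3. For the XY steps they went from 8395 to 4149 with the threshold, from 2694 to 4317 with only the libraries compared, 937 with the threshold, 1503, 1626 and 1606 without XY E12.5 replicate 2, XY E13.5 replicate 2 and XY E13.5 replicate 3, and from 3448 to 6111, 5652 and 1396 under the 3 settings. From E11.5 to E15.5 they went from 9613 to 6225, 5004 and 4672 in XX and from 9348 to 4924 with the threshold in XY.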
